A study of Mus musculus with 10 samples.

Results

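The comparison described here set mouse embryonic stem (ES) cells that had spent 96 h outside self-renewal conditions with doxycycline (DOX) against the same cells still held in those conditions. The cells were of the E14 line and all carried a stably integrated Esrrb construct that DOX induces. The reference group was grown in N2B27 medium with 2iL, that is 3 µM CHIR99021 (a GSK3 inhibitor), 1 µM PD0325901 (a MEK inhibitor) and the cytokine LIF, and received no DOX (4 libraries, 2 from each of experiments 1 and 2). The other group had its 2iL replaced by plain N2B27 with DOX for 96 h (3 libraries, 2 from experiment 1 and 1 from experiment 2). These 7 of the 10 libraries of the study were chosen by their labels. The remaining 3, cells 96 h after 2iL removal without DOX, are set beside them wherever the question is what DOX changed. Every group carried the construct, and cells in 2iL with DOX or cells lacking the construct were not among the libraries used here, so the effects of DOX, of the construct and of 96 h outside 2iL cannot be told apart in the comparison with 2iL.

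Naive pluripotency is the state of the pre-implantation epiblast, and 2iL holds ES cells there by freeing beta-catenin, blocking ERK and activating STAT3. A network of transcription factors, with Esrrb, Nanog, Klf4, Tfcp2l1 and Tbx3 among its members, carries these signals. When 2iL is withdrawn the network is shut down and a formative, post-implantation-like programme with Otx2, Fgf5 and the de novo DNA methyltransferases is switched on. Esrrb is an orphan nuclear receptor of this network that binds DNA as a monomer.

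Levels below are CPM, read counts relative to all reads in genes, scaled between libraries by the TMM method, and reads came from the 3′ ends of polyA RNA. Single values are always listed in the order exp1_1, exp1_2, exp2_1 and exp2_2 for 2iL, exp1_1, exp1_2 and exp2_2 for 96 h without DOX, and exp1_1, exp2_1 and exp1_2 for 96 h with DOX, where the last number is the library number within the experiment. The labels do not tie libraries to separate cultures, so p-values measure only the spread between these libraries. Genes were called at an adjusted p below 0.05 (edgeR quasi-likelihood F test, Benjamini-Hochberg adjustment over all tested genes). Every log2 fold change is the difference of 96 h with DOX from 2iL unless the group without DOX is named.

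The library 96 h DOX exp1_2 stood apart from the other 9. It held 1253620 reads in genes against 2769071 to 4715450 elsewhere, 14.8% of them in Gm42418, a gene that overlaps ribosomal RNA, against 3.39% to 6.61%. Mitochondrial genes took 3.10% of its reads (0.559% to 1.27% elsewhere) and ribosomal protein genes 7.48% (14.0% to 17.7% elsewhere). The 12 fibroblast markers summed to 2709 CPM there, unscaled, and to 24.99 to 79.0 CPM in the other libraries. Col1a2 alone reached 1288 CPM, S100a4 585 CPM and Postn 59.8 CPM, while Postn was at 0 in all others. The 8 macrophage markers summed to 70.2 CPM (8.33 to 30.8 elsewhere), with C1qa and C1qb at 0 in this library. The 6 hepatocyte markers summed to 25.5 CPM (0 to 1.51 elsewhere), nearly all of it Alb. Muscle markers summed to 57.4 CPM against 22.9 to 42.3, most of it Ttn (49.5 CPM, 2.42 to 13.5 elsewhere). Myl7, another muscle marker, was lowest in this library (1.60 CPM, 6.31 to 20.3 elsewhere). The part of these RNAs in the results was not tested. List counts below are given with and without this library.

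**Figure D1:**
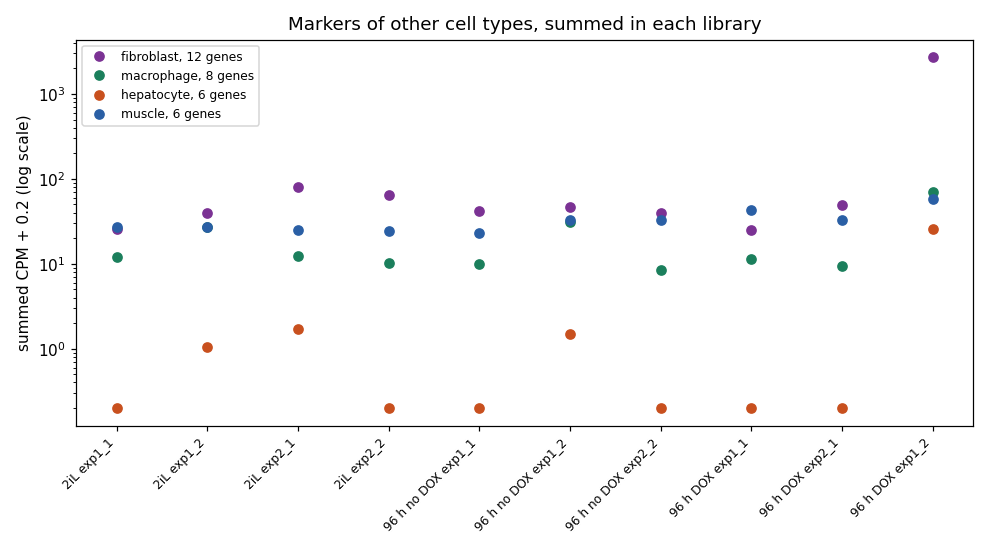
Summed CPM (without TMM scaling, plus 0.2, log scale) of markers of 4 other cell types in each of the 10 libraries. Fibroblast, macrophage and hepatocyte markers stand highest in 96 h DOX exp1_2, where fibroblast markers reach 2709 CPM.

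Of 11215 tested genes, 1870 (16.7%) differed between 96 h with DOX and 2iL: 1104 were higher with DOX (9.84%) and 766 lower (6.83%). At least 2-fold changes made up 1005 of the higher and 574 of the lower genes, and at least 8-fold changes 314 and 114. The median log2 fold change over all tested genes was 0.02, with quartiles at -0.42 and 0.57. Without 96 h DOX exp1_2, 1569 of 11635 genes were called (13.5%), 897 higher (7.71%) and 672 lower (5.78%), and 1371 genes were called in both fits in the same direction. Of the 1870 calls, 1002 were kept in each of the 10 fits that left out 1 library (606 higher and 396 lower). Between the 2 groups at 96 h, 348 genes were called (3.10%), 242 higher with DOX (2.16%) and 106 lower (0.945%). Of these 348 calls, 123 were kept in each of the 10 fits (97 higher and 26 lower). The shares of called genes are the background for the counts of list members below. Scaling by library totals alone moved the median of all genes to 0.17 and the higher share of the calls from 59.0% to 70.9%.

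The calls against 2iL and against 96 h without DOX divide the tested genes. Among genes that had fallen below 2iL, 37 were still higher with DOX than without it, and 710 did not pass between the groups at 96 h. Another 113 genes were higher with DOX than without and did not pass against 2iL. Of the genes above 2iL, 92 were also above 96 h without DOX and 38 below it. Both tests share the libraries with DOX, so these counts describe positions and are no independent evidence of each other.

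**Figure D2:**
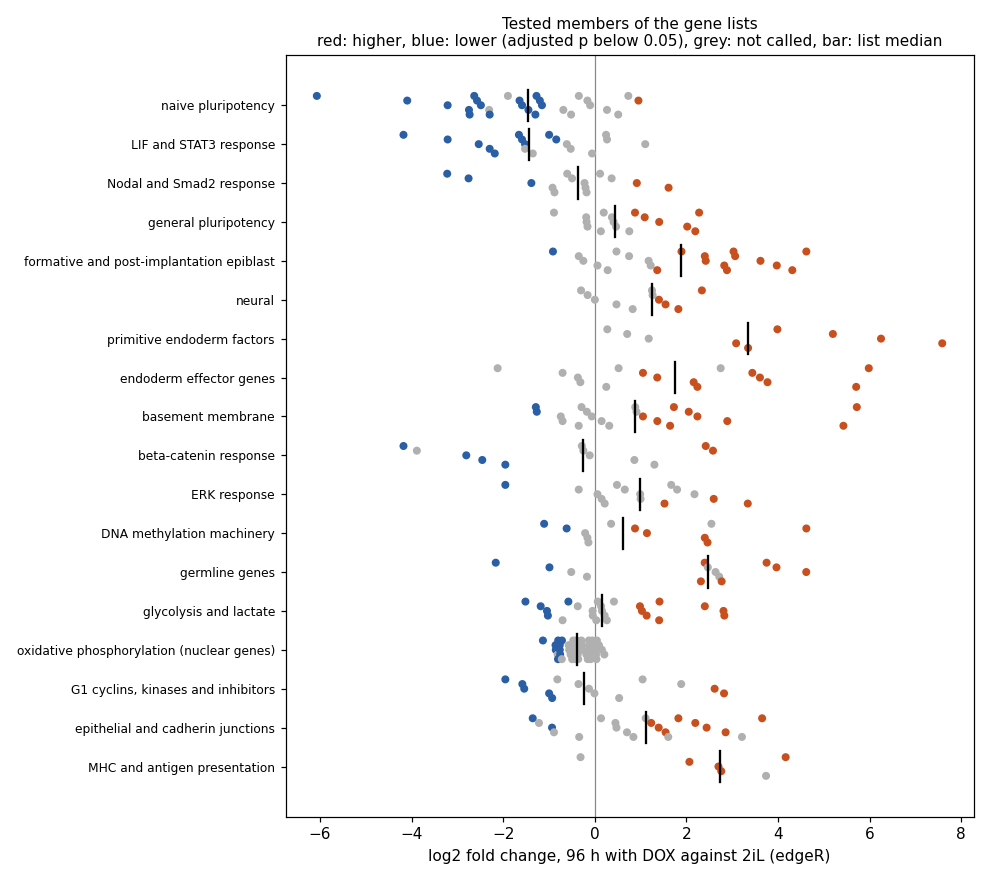
Log2 fold change (96 h with DOX against 2iL, edgeR) of every tested member of 18 gene lists, coloured by its call, with the list median as a bar. Naive and LIF genes lie mostly left of 0, and formative, endoderm and MHC genes mostly right of it.

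Esrrb itself (ENSMUSG00000021255, chromosome 12, 86361117 to 86521628, GRCm38) was far below its 2iL level in all cells with DOX. It stood at 378, 229, 331 and 323 CPM in 2iL and at 12.8, 27.0 and 14.7 CPM at 96 h with DOX, and the groups did not overlap. The log2 fold change was -4.10 ± 0.34 (SE), with -4.48 within experiment 1 and -3.59 within experiment 2 (adjusted p = 1.14e-07). Without DOX it stood at 23.8, 13.6 and 32.0 CPM, a range that overlaps the cells with DOX (log2 fold change -0.32, adjusted p = 0.704, 95% interval -1.01 to 0.38). These are reads at the 3′ end of the gene, and whether the construct carries that 3′ end could not be read from the labels, so the counts do not check the induction.

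The naive pluripotency list had 28 genes, of which 27 were tested (Cdh16 was too low). 16 were lower with DOX than in 2iL, 1 was higher and 10 did not pass (background 9.84% higher and 6.83% lower). The median log2 fold change was -1.45, against 0.02 over all tested genes. Without 96 h DOX exp1_2 it was -1.48, with 15 lower and 1 higher. 13 of the 16 lower calls were kept in all fits without 1 library. Within experiment 1 alone 11 of 26 tested naive genes were lower, against 304 of all 11309 tested genes. Against 96 h without DOX, 11 of the 27 were higher with DOX and 0 lower, where 2.16% and 0.945% of all genes were called.

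A set of 5 naive genes did not pass against 2iL and was called higher than without DOX. Klf5, a Krüppel-like factor of the naive network, stood at 265, 272, 353 and 356 CPM in 2iL and at 229.8, 286 and 612 CPM with DOX. Without DOX it stood at 83.1, 49.8 and 58.2 CPM, below every library of the other groups. Its log2 fold change against 2iL was 0.27 ± 0.29 (adjusted p = 0.586, 95% interval -0.33 to 0.86) and against no DOX 2.56 (adjusted p = 7.07e-05). Nr0b1, the orphan nuclear receptor Dax1, showed the same order. It stood at 12.3, 20.5, 20.6 and 27.4 CPM in 2iL, 2.35, 1.08 and 0.588 CPM without DOX and 19.2, 28.3 and 55.3 CPM with DOX (0.73 against 2iL, 95% interval -0.11 to 1.57; 4.62 against no DOX, adjusted p = 3.66e-05). The highest value of both genes came from 96 h DOX exp1_2. Without that library the log2 fold changes against 2iL were -0.27 for Klf5 and 0.23 for Nr0b1, and neither passed (adjusted p = 0.494 and 0.803).

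Tet2, which oxidises 5-methylcytosine, stood at 34.6, 39.2, 11.98 and 27.0 CPM in 2iL, 2.94, 2.80 and 2.06 CPM without DOX and 14.7, 27.7 and 34.6 CPM with DOX. Its interval against 2iL ran from -0.98 to 0.65, and it was higher than without DOX by 3.25 log2 units (adjusted p = 0.000511). Dppa5a, an RNA-binding protein of pluripotent cells, stood at 294, 156, 346 and 199.99, then 30.5, 20.9 and 51.7 and then 130.5, 336 and 118 CPM in the same order of groups. The libraries with DOX overlapped those in 2iL for both genes (-1.09 to 0.39 for Dppa5a) and stood above all libraries without DOX. Manba, a lysosomal mannosidase, was the fifth (6.89, 4.92 and 9.58 CPM with DOX, 13.3, 8.77, 3.99 and 14.05 CPM in 2iL), but its call against no DOX was lost without 96 h no DOX exp1_1, 96 h no DOX exp1_2, 96 h no DOX exp2_2, 96 h DOX exp1_1 or 96 h DOX exp1_2 (adjusted p up to 0.104). The 5 intervals against 2iL each span more than 1 log2 unit, so they do not show that the levels were equal.

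A set of 6 naive genes lay between the other groups, below 2iL and above 96 h without DOX. Tbx3, a T-box factor, stood at 224, 192, 197 and 245 CPM in 2iL, 14.97, 11.2 and 12.9 CPM without DOX and 84.8, 91.9 and 113 CPM with DOX, with no overlap between any pair of groups. Its log2 fold change was -1.15 ± 0.22 against 2iL (adjusted p = 0.000809) and 2.89 against no DOX. Klf4, a target of STAT3, stood at 219, 208, 249.7 and 263 CPM in 2iL, 12.6, 10.8 and 15.6 CPM without DOX and 75.8, 58.7 and 102 CPM with DOX (-1.59 ± 0.24, adjusted p = 7.86e-05). Zfp42, the naive marker Rex1, stood at 241, 171, 169 and 164, 17.03, 16.6 and 23.2 and 57.5, 76.2 and 112 CPM in these groups (-1.20 ± 0.26, adjusted p = 0.00250). In all 3 genes the library with DOX nearest to 2iL was exp1_2, and without it the log2 fold changes were -1.28, -1.81 and -1.48. Within experiment 2 they were -1.26, -2.13 and -1.13.

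Jam2, a junctional adhesion molecule, stood at 40.0, 87.1, 71.3 and 53.6 CPM in 2iL and 15.2, 40.6 and 20.6 CPM with DOX, so that exp2_1 reached the lower end of the 2iL range. Without DOX it was almost absent (0.294, 2.16 and 0.588 CPM). Tfcp2l1, a transcription factor downstream of LIF, stood at 997, 917, 851 and 907 CPM in 2iL and at 116, 132 and 44.9 CPM with DOX, still above the 23.5, 29.8 and 37.9 CPM without DOX. Its log2 fold change against 2iL was -3.21 ± 0.31 (adjusted p = 5.35e-07) and against no DOX 1.70 (adjusted p = 0.00333). Tcl1, a coactivator of AKT kinases, showed the same order of groups, at 398, 402, 209 and 255, 10.9, 11.2 and 14.7 and 36.8, 68.8 and 33.9 CPM (-2.75 ± 0.30). Tbx3 did not pass within experiment 1 (adjusted p = 0.0657). Jam2 did not pass without 2iL exp1_2, 2iL exp2_1, 96 h DOX exp1_1 or 96 h DOX exp1_2 (adjusted p up to 0.128).

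The other 10 lowered naive genes were not called different from 96 h without DOX. Nanog, the homeobox factor of the core network, stood at 215, 188, 241 and 237 CPM in 2iL and 20.9, 51.6 and 25.8 CPM with DOX (-2.73 ± 0.30, adjusted p = 2.18e-06). Without DOX it stood at 18.8, 14.02 and 22.3 CPM, and the interval between the groups at 96 h was 0.21 to 1.497 before adjustment (adjusted p = 0.165). Klf2, a Krüppel-like factor that MEK inhibition sustains, stood at 254, 268, 277 and 241 CPM in 2iL, 59.9, 61.03 and 36.1 CPM without DOX and 47.3, 40.9 and 42.7 CPM with DOX. The nuclear receptor gene Nr5a2 fell from 136 ± 41.7 to 23.7 ± 8.52 CPM (mean ± SD, n = 4 and 3) and the growth factor gene Fgf4 from 139.8 ± 37.5 to 57.6 ± 6.19 CPM. Fbxo15, an F-box protein gene marking ES cells, had a log2 fold change of -1.45, and Dppa3 (Stella), Gbx2 and the adhesion gene Pecam1 had log2 fold changes of -2.63, -2.30 and -1.64. Prdm14, which restrains ERK signalling and DNA methylation, kept 1 read with DOX against 127 in 2iL, a ratio of 82.5-fold (95% counting interval 14.6 to 3286). Gbx2 did not pass without 2iL exp2_1 (adjusted p up to 0.0657), nor within experiment 1 (0.220) or with limma-voom (0.0628). Dppa3 did not pass within experiment 1 (adjusted p = 0.0556). Pecam1 did not pass within experiment 1 (adjusted p = 0.0991). Prdm14 fell below the filter on low counts without 2iL exp1_2, 2iL exp2_1 or 2iL exp2_2 and within experiment 1. Prdm14 had a log2 fold change of -5.35 without 96 h DOX exp1_1 and -8.06 without 96 h DOX exp2_1.

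Dppa4 was the naive list's only riser, at 152, 183, 147 and 173.00 CPM in 2iL and 369, 234 and 347 CPM with DOX (0.95 ± 0.23), and it stood at 297, 468 and 303 CPM without DOX. Dppa4 did not pass within experiment 1 (adjusted p = 0.0662). Zfp57, Dppa2, Mybl2, Sox15 and Aire passed neither test. Zfp57, which protects imprints, varied most, at 40.0, 30.1, 18.4 and 4.07 CPM in 2iL and 11.9, 3.69 and 53.8 CPM with DOX. Dppa2 had an interval of -0.04 to 1.06, Mybl2 -1.24 to -0.13, Sox15 -4.15 to -0.46 and Aire -4.51 to 0.71. Mybl2 passed without a filter on low counts (-0.71, 0.0457). Sox15 passed with DESeq2 (-2.33, 0.0305) and with limma-voom (-2.77, 0.0324).

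**Figure D3:**
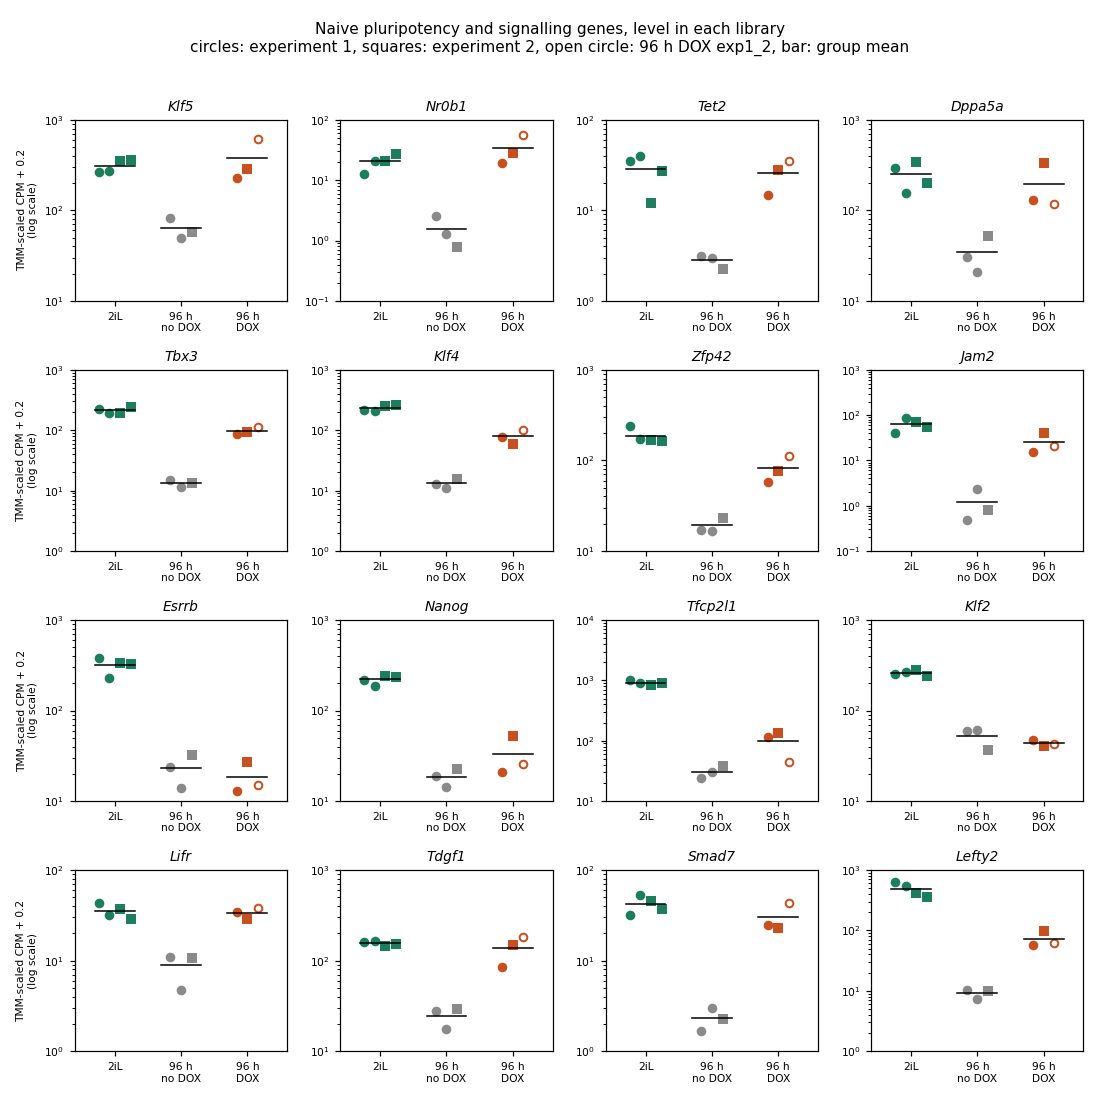
Level (TMM-scaled CPM plus 0.2, log scale) of 16 naive and signalling genes in each library, with the group mean as a bar. Libraries with DOX overlap 2iL for Klf5 and Nr0b1, lie between 2iL and 96 h without DOX for Tbx3 and Klf4, and overlap 96 h without DOX for Esrrb and Klf2.

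LIF acts through its receptor chains Lifr and Il6st, the kinase Jak1 and the factor Stat3. Of 18 tested members of the LIF and STAT3 list, 10 were lower with DOX than in 2iL and 0 higher (median -1.44) (background 9.84% higher and 6.83% lower; without 96 h DOX exp1_2, 0 higher and 10 lower of 18, median -1.58). 6 of the 10 were kept in every fit without 1 library. Klf4, Klf5, Tfcp2l1 and Gbx2 belong to this list as well. Neither receptor gene passed against 2iL. Lifr stood at 43.3, 31.6, 36.5 and 28.5 CPM in 2iL, 10.9, 4.53 and 10.6 CPM without DOX and 34.2, 28.6 and 38.3 CPM with DOX (-0.06 against 2iL, 95% interval -0.72 to 0.60; 1.97 against no DOX, adjusted p = 0.00333). Il6st stood at 39.6, 36.6, 34.1 and 24.03 CPM in 2iL, 8.22, 6.47 and 7.34 CPM without DOX and 24.7, 15.98 and 30.2 CPM with DOX (interval against 2iL -1.19 to 0.14), and its call against no DOX (adjusted p = 0.0112) was lost without 96 h no DOX exp1_2 (adjusted p up to 0.0501).

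Stat3 stood at 223, 137, 129 and 148 CPM in 2iL, 30.2, 18.3 and 42.01 CPM without DOX and 37.1, 74.98 and 54.5 CPM with DOX (-1.52 ± 0.30, adjusted p = 0.00143). Its target Bcl3 stood at 59.6, 65.5, 57.1 and 59.1 CPM in 2iL, 4.70, 3.45 and 9.69 CPM without DOX and 7.60, 12.3 and 11.8 CPM with DOX (-2.54 ± 0.35). The feedback inhibitor Socs3 stood at 7.99, 6.73, 8.91 and 12.6 CPM in 2iL and 1.19, 0.307 and 11.1 CPM with DOX, low in exp1_1 and exp2_1 and high in exp1_2. Socs3 passed without 96 h DOX exp1_2 (-3.48, adjusted p = 0.00996) and with limma-voom (-2.70, 0.0205). Junb and Ccnd3 had log2 fold changes of -1.66 and -0.998. Junb did not pass without 2iL exp2_1, 2iL exp2_2, 96 h DOX exp1_1 or 96 h DOX exp2_1 (adjusted p up to 0.114), nor within experiment 1 (0.190). Ccnd3 did not pass within experiment 1 (adjusted p = 0.115).

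Nodal signals through activin receptors and Smad2, with Tdgf1 (Cripto) as co-receptor and Lefty1 and Lefty2 as secreted inhibitors. In the list, 2 of 14 tested members were higher and 3 lower than in 2iL (median -0.36) (background 9.84% higher and 6.83% lower; without 96 h DOX exp1_2, 2 higher and 3 lower of 14, median -0.52). Tdgf1 stood at 162, 165, 145 and 152 CPM in 2iL, 27.3, 17.3 and 28.8 CPM without DOX and 83.9, 150.3 and 181 CPM with DOX (-0.18, 95% interval -0.71 to 0.35; 2.50 against no DOX, adjusted p = 3.26e-05). Smad7, the inhibitory Smad, stood at 32.0, 52.3, 45.1 and 37.0 CPM in 2iL, 1.47, 2.80 and 2.06 CPM without DOX and 24.7, 22.7 and 42.7 CPM with DOX (-0.50, -1.16 to 0.17; 3.75 against no DOX). Their libraries with DOX overlapped those in 2iL and stood above every library without DOX. For Smad7 the overlap with 2iL came from 96 h DOX exp1_2 alone. Without that library its log2 fold change against 2iL was -0.81 and did not pass (adjusted p = 0.121). Lefty2 lay between, at 636, 539, 418 and 353 CPM in 2iL, 9.98, 7.12 and 9.69 CPM without DOX and 57.5, 95.9 and 61.9 CPM with DOX (-2.76 ± 0.27, adjusted p = 6.21e-07). These 3 were the list's calls above no DOX.

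Nodal itself stood at 68.9, 86.9, 62.04 and 62.5 CPM in 2iL and 35.6, 80.8 and 19.2 CPM with DOX, so the library of experiment 2 was inside the 2iL range and both of experiment 1 below it. Nodal passed without 96 h DOX exp2_1 (-1.31, adjusted p = 0.0124) and within experiment 1 (-1.46, 0.0369). Lefty1 was at 74.9, 89.2, 54.7 and 35.9 CPM in 2iL and 29.2, 53.8 and 15.5 CPM with DOX (-0.92, adjusted p = 0.116). Lefty1 passed without 96 h DOX exp2_1 (-1.46, adjusted p = 0.0275), within experiment 1 (-1.82, 0.0160) and without a filter on low counts (-0.95, 0.0221). Gdf3, a related ligand, had a log2 fold change of -1.39. Skil, a Smad corepressor, rose from 13.9 ± 2.10 to 42.6 ± 5.74 CPM (1.61 ± 0.28) and stood at 35.4 ± 5.22 CPM without DOX.

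Among general pluripotency genes, shared by naive and later stages, 6 of 16 were higher than in 2iL and 0 lower (median 0.44) (background 9.84% higher and 6.83% lower; without 96 h DOX exp1_2, 6 higher and 0 lower of 16, median 0.44). Pou5f1 (Oct4) stood at 28.3, 57.6, 49.4 and 35.1 CPM in 2iL and 58.5, 32.0 and 19.2 CPM with DOX (95% interval -0.89 to 0.51), and Sox2 at 272, 406, 312 and 364 CPM and 301, 255 and 354 CPM (-0.65 to 0.33). Every library with DOX held more Sox2 than any without (158, 220.4 and 128 CPM), but that test missed the threshold (adjusted p = 0.0776). Utf1, a chromatin factor, rose from 123 ± 24.5 to 598 ± 52.9 CPM (2.28 ± 0.23), the adhesion gene Epcam from 27.5 ± 9.47 to 126 ± 16.2 CPM (2.19 ± 0.25) and Lin28a, which blocks let-7 maturation, from 91.2 ± 10.8 to 241 ± 41.4 CPM (1.40 ± 0.21).

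Of the formative and post-implantation list, 12 of 21 tested genes were higher than in 2iL and 1 was lower, with median 1.89 (background 9.84% higher and 6.83% lower; without 96 h DOX exp1_2, 12 higher and 1 lower of 21, median 2.11). 11 of the 12 rises were kept in every fit without 1 library. Between the groups at 96 h, 10 of these 12 genes were not called, 1 was higher with DOX and 1 lower. Within experiment 1 alone 11 of 21 genes rose, against 622 of all 11309 tested genes. Pou3f1 (Oct6) stood at 8.66, 10.2, 5.22 and 8.13 CPM in 2iL and 253, 94.3 and 133 CPM with DOX (4.31 ± 0.35, adjusted p = 1.09e-07). Otx2 stood at 44.0, 42.4, 15.05 and 19.6 CPM in 2iL and 338, 202 and 200.4 CPM with DOX (3.03 ± 0.32), and the 235, 309.7 and 247 CPM without DOX covered about the same range (interval -0.77 to 0.58). Fgf5, the classic marker of this stage, stood at 0.333, 0.585, 0.307 and 0.370 CPM in 2iL and 10.7, 3.07 and 6.63 CPM with DOX (3.97 ± 0.64). All libraries without DOX held more of it (30.5, 14.7 and 21.7 CPM), though the difference did not pass (adjusted p = 0.0788).

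Sox4, Fzd2 (a Wnt receptor) and Grhl2 (an epithelial factor) rose as well, by 2.82, 2.88 and 3.06 log2 units. Lef1, the beta-catenin partner, stood at 1.998, 2.34, 20.3 and 11.1 CPM in 2iL, higher in experiment 2, and at 44.4, 32.6 and 68.5 CPM with DOX (2.42 ± 0.54). Car14, a carbonic anhydrase, went from 9 reads in all 2iL libraries to 83 with DOX (3.62 ± 0.65). Sox4, Fzd2, Grhl2, Lef1, Car14 and Pou3f1 were not called between the groups at 96 h. Without DOX Grhl2 stood at 34.9 ± 6.51 CPM and Lef1 at 42.1 ± 12.2 CPM (35.5 ± 8.25 and 48.5 ± 18.3 CPM with DOX). Trap1a, an X-linked tumour antigen, was the only faller, at 259.8, 224, 259 and 242 CPM in 2iL, 48.7, 42.7 and 63.2 CPM without DOX and 111, 105 and 179 CPM with DOX. Lef1 had a log2 fold change of 3.27 without 2iL exp2_1. Grhl2 had a log2 fold change of 3.92 without 2iL exp2_2. Car14 had a log2 fold change of 5.32 without 2iL exp2_2. Trap1a did not pass without 96 h DOX exp1_1 or 96 h DOX exp2_1 (adjusted p up to 0.0553), nor within experiment 1 (0.211).

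The de novo DNA methyltransferases were both above 2iL, and stood on opposite sides of their level without DOX. Dnmt3a (ENSMUSG00000020661, chromosome 12, 3806007 to 3914443) stood at 29.3, 39.5, 29.5 and 22.2 CPM in 2iL, 216, 287 and 277 CPM without DOX and 939, 569 and 716 CPM with DOX, highest in all libraries with DOX. Its log2 fold change was 4.62 ± 0.26 against 2iL (adjusted p = 4.64e-10; 4.59 and 4.46 within experiments 1 and 2) and 1.51 against no DOX (adjusted p = 0.00155). Dnmt3b stood at 195, 177, 172 and 160.1 CPM in 2iL, 1928, 1597 and 1971 CPM without DOX and 1096, 1022 and 670.4 CPM with DOX (2.40 ± 0.23 against 2iL; -0.98 against no DOX, adjusted p = 0.0304). The lower level of Dnmt3b with DOX than without was not called without 2iL exp2_1, 2iL exp2_2, 96 h no DOX exp1_1, 96 h no DOX exp2_2 or 96 h DOX exp2_1 (adjusted p up to 0.127). Uhrf1, which recruits the maintenance methyltransferase, had a log2 fold change of -1.11, and Tet3, a further dioxygenase, rose from 3.49 ± 1.97 to 19.7 ± 11.1 CPM (2.46 ± 0.48). Tet1 stood at 139, 161, 93.1 and 133 CPM in 2iL and 191, 179 and 504 CPM with DOX (1.14, adjusted p = 0.0157), highest in exp1_2. Over the list, 5 of 12 genes were higher and 2 lower (background 9.84% higher and 6.83% lower; without 96 h DOX exp1_2, 4 higher and 2 lower of 12, median 0.55 against 0.62 with it). Uhrf1 did not pass within experiment 1 (adjusted p = 0.150). Tet1 did not pass without 2iL exp2_1 or 96 h DOX exp1_2 (adjusted p up to 0.211), nor within experiment 1 (0.0969).

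Of 11 tested neural genes, 4 were higher than in 2iL and 0 lower (background 9.84% higher and 6.83% lower; without 96 h DOX exp1_2, 4 higher and 0 lower of 11, median 1.49 against 1.25 with it), and 3 were lower than without DOX, where 0.945% of all genes were. Sox3, an early neural SoxB1 factor, stood at 14.7, 9.94, 18.4 and 17.7 CPM in 2iL, 289.5, 204 and 370.2 CPM without DOX and 51.6, 48.6 and 16.2 CPM with DOX (1.40 ± 0.33 against 2iL; -2.85 against no DOX, adjusted p = 4.77e-05). Nes, the neural intermediate filament, did not pass against 2iL (27.0, 17.8, 11.4 and 14.4 CPM in 2iL, 18.3, 18.1 and 16.2 CPM with DOX, 95% interval -0.61 to 0.61). It was higher in every library without DOX (55.2, 56.1 and 49.4 CPM; -1.60, adjusted p = 0.00840). Irx3, a homeobox gene of the neural plate, stood at 5.33, 4.09, 4.30 and 6.65 CPM in 2iL, 69.9, 38.0 and 97.5 CPM without DOX and 10.7, 19.7 and 4.42 CPM with DOX (1.26 against 2iL, adjusted p = 0.0504; -2.49 against no DOX, adjusted p = 0.00194). All 3 calls against no DOX were kept without each library in turn. Sox11 rose from 29.5 ± 6.27 to 149 ± 47.3 CPM (2.34 ± 0.26), and Pax6 did not pass (4.04, 15.4 and 4.42 CPM). Sox3 did not pass within experiment 1 (adjusted p = 0.0519). Against 2iL, Irx3 passed once 96 h DOX exp1_2 was left out (1.57, adjusted p = 0.0107), as it did without 96 h no DOX exp1_2, with RLE scaling, library totals alone or no filter, and with DESeq2.

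Primitive endoderm, the extraembryonic sister of the epiblast, is specified by Gata6 and marked by Pdgfra, Sox17 and Gata4. Of 13 listed factors 9 passed the filter on low counts, which they could pass through the cells with DOX alone, and 6 were higher than in 2iL and 0 lower (background 9.84% higher and 6.83% lower; without 96 h DOX exp1_2, 5 higher and 0 lower of 9). 5 were also called higher than without DOX (background 2.16%), 2 of them in every fit without 1 library. Gata6 stood at 0, 1.75, 0.614 and 0 CPM in 2iL, 0.294, 0.431 and 1.76 CPM without DOX and 47.3, 45.5 and 61.1 CPM with DOX, with all 3 libraries far above the rest (6.25 ± 0.62 against 2iL, adjusted p = 6.88e-07). Pdgfra, the receptor that marks the lineage, stood at 2.66, 0, 1.23 and 0.370 CPM in 2iL and 23.5, 17.8 and 81.8 CPM with DOX (5.20 ± 0.75). All libraries with DOX stood above the others for both genes. Fibroblast markers summed to 24.99 CPM in exp1_1 and 48.5 CPM in exp2_1, where Col1a1 stood at 15.3 CPM (0.424 to 5.42 CPM in the other 8 libraries besides exp1_2). Their part in the levels of Gata6 and Pdgfra was not tested.

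Gata4, Sox17 and Foxa2 were at low levels and less stable. Gata4 stood at 3.33, 3.995 and 14.7 CPM with DOX and 0, 0.292, 0.614 and 0.739 CPM in 2iL, Sox17 at 7.60, 8.30 and 7.37 and 2.33, 0.292, 0.307 and 0 CPM, and Foxa2 at 14.5, 3.07 and 9.58 and 1.33, 0.292, 2.46 and 0 CPM. Gata6 had a log2 fold change of 7.60 without 2iL exp1_2. Pdgfra had a log2 fold change of 6.13 without 2iL exp1_1 and 4.24 without 96 h DOX exp1_2. Gata4 did not pass without 96 h DOX exp1_2 (adjusted p up to 0.124). Sox17 did not pass without 2iL exp1_2, 2iL exp2_1, 96 h DOX exp1_1 or 96 h DOX exp2_1 (adjusted p up to 0.0596), nor within experiment 1 (0.181). Sox17 had a log2 fold change of 4.97 without 2iL exp1_1. Foxa2 did not pass without 2iL exp1_1, 2iL exp1_2, 2iL exp2_2, 96 h DOX exp1_1 or 96 h DOX exp1_2 (adjusted p up to 0.193). Foxa2 had a log2 fold change of 3.99 without 2iL exp2_1. Foxq1, a forkhead gene outside the lists (ENSMUSG00000038415, chromosome 13, 31556134 to 31560976), stood at 0.666, 0.292, 1.84 and 1.11 CPM in 2iL and 52.0, 88.8 and 72.2 CPM with DOX (6.14 ± 0.46, adjusted p = 1.09e-07; 6.93 and 5.85 within experiments 1 and 2). It had no read in the 3 libraries without DOX.

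Of 27 endoderm effector genes 16 passed the filter, as before in part through the groups at 96 h alone. 9 were higher than in 2iL and 0 lower (background 9.84% higher and 6.83% lower; without 96 h DOX exp1_2, 8 higher and 1 lower of 16). 6 rises were kept in every fit without 1 library. The endocytic machinery of visceral endoderm, the receptors Lrp2 and Cubn with their partners Amn and Dab2, was higher than in 2iL for all 4 genes. Dab2 stood at 0.333, 1.17, 0.307 and 0 CPM in 2iL, 3.23, 2.80 and 1.76 CPM without DOX and 19.01, 28.6 and 51.6 CPM with DOX (5.98 ± 0.63; 3.62 against no DOX, adjusted p = 0.000788). Amn stood at 1.998, 1.17, 0.307 and 0 CPM in 2iL and 10.7, 12.9 and 13.997 CPM with DOX (3.77 ± 0.80). Cubn had 1 read in 2iL, none without DOX and 54 with DOX, a ratio to 2iL of 83.1-fold (95% counting interval 14.3 to 3342). Lrp2 stood at 4.33, 2.92, 4.30 and 2.96 CPM in 2iL and 37.8, 48.2 and 32.4 CPM with DOX (3.44 ± 0.35), and at 56.4, 34.3 and 72.3 CPM without DOX. The yolk sac secretory genes Afp, Ttr, Apoa1, Apoa4, Apob and Rbp4 did not pass the filter on low counts. Dab2 had a log2 fold change of 6.95 without 2iL exp1_2. Amn had a log2 fold change of 4.49 without 2iL exp1_1. Cubn did not pass within experiment 1 (adjusted p = 0.154). Cubn had a log2 fold change of 7.30 without 2iL exp1_2 and 5.04 without 96 h DOX exp2_1.

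Basement membrane is the sheet of type IV collagen, laminin, nidogen and perlecan that endoderm lays down. 9 of 21 genes were higher than in 2iL and 2 lower (median 0.88) (background 9.84% higher and 6.83% lower; without 96 h DOX exp1_2, 6 higher and 4 lower of 21, median 0.29). Both chains of type IV collagen led. Col4a1 stood at 3.996, 3.80, 2.15 and 4.07 CPM in 2iL, 19.97, 14.9 and 12.6 CPM without DOX and 157, 180.1 and 221 CPM with DOX (5.72 ± 0.30, adjusted p = 2.10e-10; 5.58 and 5.87 within experiments 1 and 2). Col4a2 stood at 0.333, 0.877, 2.15 and 1.48 CPM in 2iL, 2.94, 5.18 and 2.35 CPM without DOX and 40.2, 37.5 and 85.5 CPM with DOX (5.43 ± 0.51, adjusted p = 3.85e-07). The genes lie head to head on chromosome 8. In RefSeq windows on GRCm38.p6 Col4a2 starts at 11312805 on the plus strand and Col4a1 at 11312826 on the minus strand. Both were also above no DOX, by 3.55 and 3.90 log2 units.

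The laminin chain Lamb1 rose from 21.003 ± 11.8 to 155 ± 21.8 CPM (2.89 ± 0.33), the laminin receptor Itga6 from 78.8 ± 17.1 to 261 ± 27.3 CPM (1.73 ± 0.23), and the collagen chaperone Serpinh1 from 72.2 ± 26.5 to 339.6 ± 134 CPM (2.24 ± 0.33). Hspg2, the perlecan gene, had a log2 fold change of 1.64. Without DOX Lamb1 stood at 82.6 ± 11.1 CPM, Itga6 at 146 ± 33.1 CPM and Hspg2 at 20.1 ± 11.3 CPM. They were not called between the groups at 96 h (adjusted p = 0.168, 0.0651 and 0.0548), nor was Serpinh1. Agrn and Fn1 (fibronectin) were lower than in 2iL, with log2 fold changes of -1.29 and -1.27, and Fn1 stood at 78.9, 90.0 and 245 CPM, highest in exp1_2. Sparc, a matrix protein fibroblasts also make, stood at 452, 533, 319 and 322 CPM in 2iL and 555, 439.8 and 1535 CPM with DOX (1.05, adjusted p = 0.0440), with the high value in exp1_2. The nidogens and the laminin chain gene Lama1 did not pass against 2iL. Nid2 stood at 61.3, 75.7, 74.3 and 78.0, 24.96, 17.9 and 17.9 and 49.4, 67.9 and 52.3 CPM in 2iL, without and with DOX (1.48 against no DOX, adjusted p = 0.00267). Nid1 stood at 4.75, 6.76 and 27.3 CPM with DOX and 20.98, 27.8, 15.05 and 16.3 CPM in 2iL, Lama1 at 22.8, 19.98 and 50.1 and 9.32, 12.3, 19.96 and 22.9 CPM. Hspg2 did not pass within experiment 1 (adjusted p = 0.0512). Fn1 did not pass within experiment 1 (adjusted p = 0.214). Fn1 had a log2 fold change of -1.96 without 96 h DOX exp1_2. Sparc did not pass without 2iL exp1_1, 2iL exp2_1, 2iL exp2_2, 96 h no DOX exp1_1, 96 h no DOX exp2_2 or 96 h DOX exp1_2 (adjusted p up to 0.542), nor within experiment 1 (0.168), with limma-voom (0.0967) or with only the 2 groups compared (0.0510). Nid1 passed without 96 h DOX exp1_2 (-1.80, adjusted p = 0.0161) and with limma-voom (-1.40, 0.0330). Lama1 passed within experiment 1 (1.73, 0.0486).

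**Figure D4:**
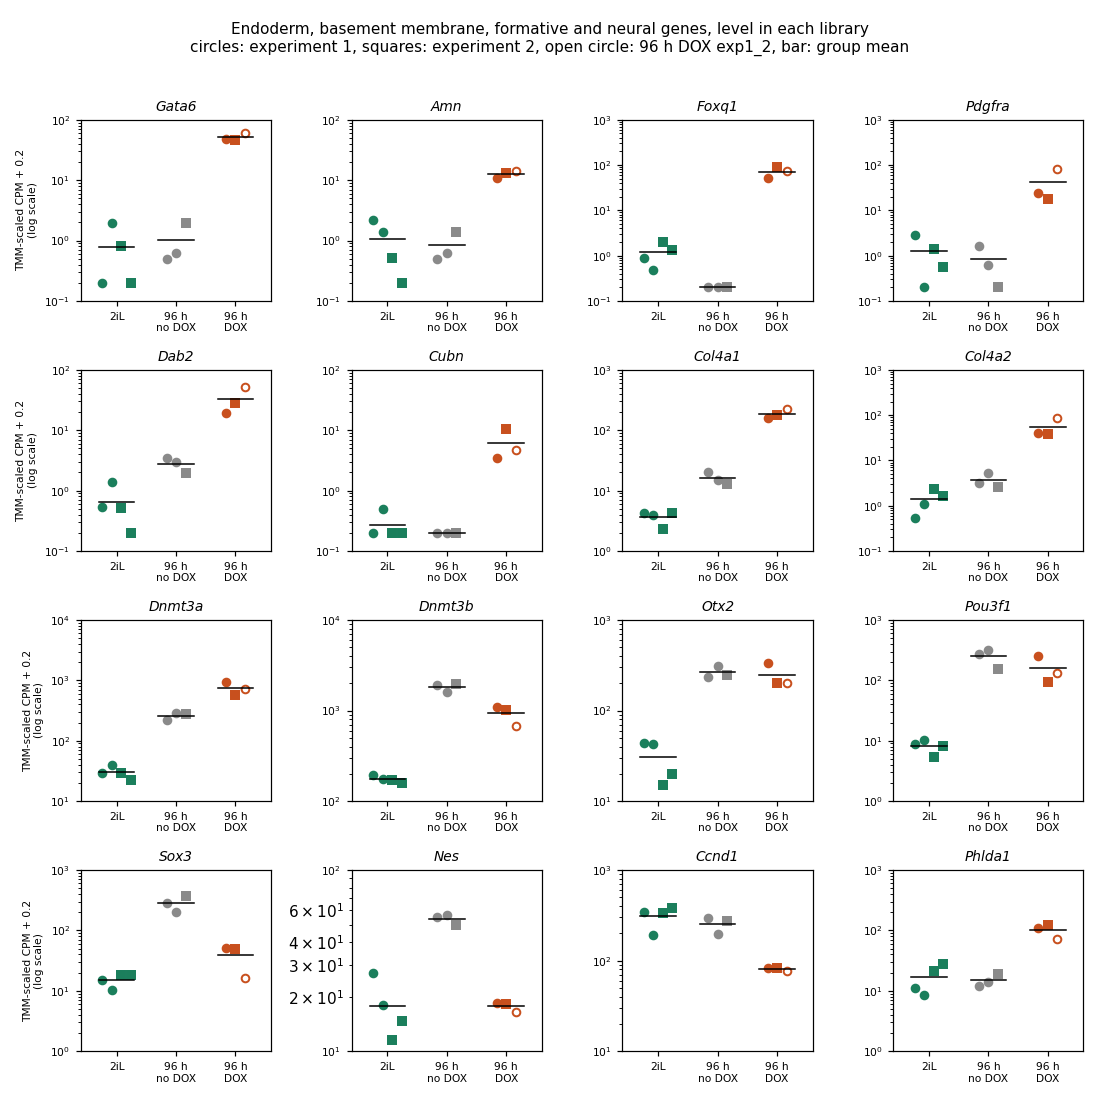
Level (TMM-scaled CPM plus 0.2, log scale) of 16 endoderm, basement membrane, formative, neural and signalling genes in each library, with the group mean as a bar. Gata6, Cubn and Foxq1 are near 0 outside the libraries with DOX, and Dnmt3a is highest with DOX while Sox3 and Nes are highest without it.

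GSK3 inhibition raises beta-catenin targets and MEK inhibition lowers ERK targets. Of the beta-catenin list, 4 of 12 genes were lower and 2 higher (background 9.84% higher and 6.83% lower; without 96 h DOX exp1_2, 2 higher and 3 lower of 12, median -0.07 against -0.27 with it). Sp5 stood at 31.6, 40.1, 181 and 197 CPM in 2iL, much higher in experiment 2, and at 5.94, 9.83 and 0.737 CPM with DOX (-4.18 ± 0.74; -3.08 and -4.26 within experiments 1 and 2). Axin2, a negative feedback gene, stood at 19.3, 17.3, 47.9 and 37.7 CPM and 6.42, 1.23 and 10.3 CPM (-2.46 ± 0.55). T (brachyury) differed between the 2iL libraries (4.33, 1.46, 70.6 and 62.5 CPM), and was at 1.19, 4.92 and 0 CPM with DOX (adjusted p = 0.123). Dkk1, a Wnt antagonist, stood at 1.998, 0.292, 9.52 and 5.18 CPM in 2iL, 0.294, 0.216 and 0 CPM without DOX and 10.2, 13.5 and 7.37 CPM with DOX (5.63 against no DOX, adjusted p = 0.00542). Nkd2, another antagonist, rose from 16 to 68 reads (2.58 ± 0.64). Sp5 did not pass with limma-voom (adjusted p = 0.0534). Axin2 did not pass within experiment 1 (adjusted p = 0.239). Dkk1 passed with limma-voom (2.10, 0.0440). Nkd2 did not pass within experiment 1 (adjusted p = 0.124). T passed without 2iL exp1_2 and with DESeq2.

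Of ERK response genes, 3 of 15 were higher than in 2iL and 1 was lower (median 0.99) (background 9.84% higher and 6.83% lower; without 96 h DOX exp1_2, 3 higher and 1 lower of 15, median 0.94). Dusp4, an ERK phosphatase, stood at 3.66, 1.75, 6.76 and 7.76 CPM in 2iL and 44.2, 38.7 and 69.2 CPM with DOX (3.34 ± 0.38), and Dusp6, another, at 30.3, 24.9, 41.5 and 39.6 and 101.2, 117 and 72.9 CPM (1.52 ± 0.25). Neither was called different from 96 h without DOX (adjusted p = 0.615 and 0.740). Phlda1, another gene that ERK induces, was higher with DOX than in both other groups, at 10.99, 8.19, 21.2 and 27.4 CPM in 2iL, 11.7, 13.6 and 18.8 CPM without DOX and 109, 122 and 72.9 CPM with DOX (2.595 ± 0.35 against 2iL; 2.79 against no DOX, adjusted p = 0.000183). Ccnd1, the G1 cyclin that ERK and beta-catenin induce, was below both. It stood at 344, 193, 333 and 377 CPM in 2iL, 292, 196 and 276 CPM without DOX and 82.0, 83.0 and 75.9 CPM with DOX (-1.95 ± 0.26 against 2iL; -1.66 against no DOX, adjusted p = 0.000788). Of 12 tested BMP genes 1 was higher and 2 were lower than in 2iL (background 9.84% higher and 6.83% lower). The list median was 0.007. Without 96 h DOX exp1_2, 0 were higher and 2 lower of 12 (median -0.11). Among BMP genes, Id4 fell from 28.9 ± 2.89 to 4.69 ± 0.913 CPM (-2.57 ± 0.39). Bmp4 stood at 26.0, 20.2, 26.4 and 22.2 CPM in 2iL and 9.98, 13.8 and 44.2 CPM with DOX (95% interval -1.03 to 0.77), and without DOX at 3.23, 1.73 and 3.23 CPM (2.99 against no DOX, adjusted p = 0.00245), and its highest value came from exp1_2.

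The G1 list held 5 lower and 2 higher genes of 14 (median -0.24) (background 9.84% higher and 6.83% lower; without 96 h DOX exp1_2, 1 higher and 6 lower of 14, median -0.56). Besides Ccnd1, the kinase gene Cdk6 fell from 105 ± 23.2 to 36.2 ± 13.9 CPM (-1.54 ± 0.30), E2f1 from 134 ± 39.5 to 44.1 ± 13.6 CPM (-1.58 ± 0.30) and Cdkn2a from 189 ± 33.5 to 99.1 ± 11.97 CPM (-0.93 ± 0.22). The inhibitor Cdkn1c (p57) stood at 2.33, 3.80, 3.07 and 5.54 CPM in 2iL and 21.2, 23.97 and 22.8 CPM with DOX (2.61 ± 0.40). Proliferation genes gave 2 higher and 2 lower of 24 (median 0.00), near the background share (background 9.84% higher and 6.83% lower; without 96 h DOX exp1_2, 1 higher and 3 lower of 24, median 0.02). The helicase subunit Mcm6 was lower, at 109.6, 118 and 54.5 CPM against 280.7, 183, 249 and 244 CPM. Of the p53 list, the pro-apoptotic Pmaip1 rose from 8.64 ± 2.82 to 52.8 ± 19.7 CPM (2.62 ± 0.33) and Gadd45a from 4.87 ± 1.99 to 31.5 ± 2.02 CPM (2.67 ± 0.38), while 16 of 18 did not pass (background 9.84% higher and 6.83% lower; without 96 h DOX exp1_2, 2 higher and 1 lower of 18, median -0.06 against -0.02 with it). Without DOX Pmaip1 stood at 43.4 ± 5.20 CPM and was not called (adjusted p = 0.720). Gadd45a stood at 11.4 ± 0.861 CPM there (1.46 against no DOX, adjusted p = 0.0415), a call kept in 4 of the 10 fits without 1 library. In the ATF4 list 2 genes were higher, Mthfd2 (1.304) and Cebpb (2.18), and 2 lower of 21 (background 9.84% higher and 6.83% lower; without 96 h DOX exp1_2, 2 higher and 2 lower of 21, median 0.15 against 0.12 with it). Cdkn2a did not pass within experiment 1 (adjusted p = 0.250).

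Glycolytic genes moved in both directions. 8 of 24 were higher and 5 lower, with a median of 0.15 (background 9.84% higher and 6.83% lower; without 96 h DOX exp1_2, 8 higher and 2 lower of 24, median 0.28). The muscle and neuronal enolases Eno3 and Eno2 rose from 9.23 ± 2.26 to 64.9 ± 22.5 CPM (2.83 ± 0.34) and from 1.86 ± 1.14 to 13.1 ± 3.98 CPM (2.81 ± 0.63). The lactate exporter Slc16a3 stood at 26.6, 40.4, 22.7 and 27.7 CPM in 2iL, 289.8, 559 and 307 CPM without DOX and 233, 140.1 and 89.1 CPM with DOX (2.40 ± 0.31). The glucose transporter Slc2a1 was above 2iL by 1.40 log2 units, from 59.0 ± 10.2 to 156 ± 14.8 CPM. Without DOX it stood at 307.7, 196 and 412 CPM (-0.96 against no DOX, adjusted p = 0.0463), a call kept in 1 of the 10 fits without 1 library. Pfkp, the platelet-type phosphofructokinase, fell from 134 ± 38.9 to 46.7 ± 0.510 CPM (-1.52 ± 0.26), and the hexokinase Hk1 stood at 121, 117, 143 and 109.8, 20.6, 12.7 and 31.4 and 63.2, 62.1 and 52.3 CPM in 2iL, without and with DOX. Ldhb, a lactate dehydrogenase subunit, was highest with DOX: 190.2, 206, 219 and 180.0 CPM in 2iL, 102, 86.3 and 75.2 CPM without DOX and 455, 545 and 304 CPM with DOX (1.13 ± 0.22 against 2iL; 2.31 against no DOX, adjusted p = 2.01e-05). Ldha, its partner, did not pass against 2iL (95% interval -0.92 to 0.17). Hk1 did not pass within experiment 1 (adjusted p = 0.0928). Ldhb did not pass within experiment 1 (adjusted p = 0.104).

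Nuclear genes of oxidative phosphorylation gave 9 lower and 0 higher of 44 (median -0.39) (background 9.84% higher and 6.83% lower; without 96 h DOX exp1_2, 0 higher and 2 lower of 44, median -0.28). Without that library the lower share was under the background. 1 of 44 was lower within experiment 1 (304 of all 11309 tested genes), and 1 was kept in every fit without 1 library. Mitochondrially encoded genes gave 3 higher of 11 and 0 without that library (background 9.84% with it and 7.71% without it). The gene mt-Nd2 stood at 979, 1405, 1410.0 and 1259 CPM in 2iL and 1378, 1421 and 10590.0 CPM with DOX, high in exp1_2 alone (adjusted p = 0.0446, and 0.755 without it). Of cholesterol synthesis genes 4 were higher and 1 lower of 23 (background 9.84% higher and 6.83% lower; without 96 h DOX exp1_2, 7 higher and 1 lower of 23, median 0.44 against 0.45 with it). No rise was kept in every fit without 1 library, and the faller was Ebp, a sterol isomerase (203 ± 32.6 to 66.1 ± 10.8 CPM, -1.61 ± 0.24).

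Germline genes that DNA methylation silences elsewhere passed the filter in 13 of 19 cases, and members near 0 in 2iL could pass through the groups at 96 h alone. 6 were higher and 2 lower (background 9.84% higher and 6.83% lower; without 96 h DOX exp1_2, 5 higher and 2 lower of 13). Sycp3, of the synaptonemal complex, stood at 1.67, 3.22, 2.46 and 1.11 CPM in 2iL and 31.1, 17.5 and 40.5 CPM with DOX (3.75 ± 0.45), and Tdrd1, of the piRNA pathway, had 2 reads in 2iL and 44 with DOX, a ratio of 33.8-fold (95% counting interval 8.83 to 288). Without DOX Sycp3 stood at 22.6, 18.8 and 11.5 CPM. Tdrd1 stood at 9.98, 15.5 and 9.69 CPM without DOX, above the 5.94, 3.995 and 4.42 CPM with DOX. Of the 13 germline genes 0 were called between the groups at 96 h, near the share of 3.10% over all tested genes. Zcwpw1, a histone reader of meiosis, rose from 7.66 ± 5.26 to 41.2 ± 15.8 CPM (2.40 ± 0.41), while the RNA-binding Dazl fell from 17.7 ± 5.48 to 3.93 ± 1.60 CPM (-2.16 ± 0.49). Of 11 antigen presentation genes 6 passed the filter, with the same limit, and 4 were higher and 0 lower (background 9.84% higher and 6.83% lower; without 96 h DOX exp1_2, 4 higher and 1 lower of 6). H2-K1 stood at 4.33, 4.39, 2.46 and 8.50 CPM in 2iL, 22.3, 19.6 and 46.4 CPM without DOX and 28.04, 40.9 and 30.2 CPM with DOX (2.76 ± 0.41). The peptide transporter Tap1 rose from 16 reads in 2iL to 80 with DOX (2.70 ± 0.68). Of the 6 antigen presentation genes 0 were called between the groups at 96 h, near the same share of 3.10%. B2m did not pass, with 8.32, 15.98 and 271 CPM with DOX and the high value in exp1_2. Zcwpw1 had a log2 fold change of 2.99 without 2iL exp1_2. Dazl did not pass within experiment 1 (adjusted p = 0.141). Tap1 had a log2 fold change of 4.03 without 2iL exp2_2. B2m passed without 96 h DOX exp1_1 (4.32, adjusted p = 0.00198), without 96 h DOX exp2_1 (4.26, adjusted p = 0.0203) and at a minimum count of 30 (3.80, 0.0254).

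Of junction genes, 8 of 21 were higher and 2 lower (median 1.11) (background 9.84% higher and 6.83% lower; without 96 h DOX exp1_2, 7 higher and 1 lower of 21, median 0.79). The claudins Cldn6 and Cldn7 rose from 1.54 ± 0.725 to 20.4 ± 13.1 CPM (3.65 ± 0.54) and from 6.80 ± 3.03 to 23.5 ± 10.7 CPM (1.82 ± 0.38). Without DOX they stood at 13.5 ± 4.06 and 67.2 ± 8.86 CPM. Cldn7 was called lower with DOX than without (-1.49, adjusted p = 0.0335), in 5 of the 10 fits without 1 library, and Cldn6 was not called (adjusted p = 0.651). The splicing regulator Esrp1 stood at 2.66, 3.51, 3.07 and 3.70 CPM in 2iL, 68.4, 48.3 and 84.3 CPM without DOX and 28.8, 25.2 and 15.5 CPM with DOX (2.85 ± 0.35). P-cadherin, Cdh3, stood at 13.7, 8.48, 10.4 and 11.8 CPM in 2iL, 10.9, 13.4 and 8.81 CPM without DOX and 37.8, 33.5 and 25.05 CPM with DOX (1.54 ± 0.33). Snai1, a repressor of E-cadherin, rose to 9.98, 10.1 and 5.89 CPM (2.44 ± 0.63). E-cadherin, Cdh1, stood at 4311, 2775, 2149 and 2490.4 CPM in 2iL and 1997, 2008 and 727 CPM with DOX, below every 2iL library, but did not pass against 2iL (-0.89, adjusted p = 0.0855). Without DOX it stood at 4006, 2854 and 6034 CPM, above every library with DOX (-1.44 against no DOX, adjusted p = 0.0356). That call was kept in 6 of the 10 fits without 1 library. Cldn6 had a log2 fold change of 3.03 without 96 h DOX exp1_2. Cdh3 did not pass within experiment 1 (adjusted p = 0.0640). Snai1 did not pass within experiment 1 (adjusted p = 0.114). Against 2iL Cdh1 passed without a filter on low counts (-0.91, 0.0107), with DESeq2 (-0.89, 0.0434) and with limma-voom (-0.996, 0.0440).

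The 12 largest rises by fitted fold change among called genes whose groups did not overlap and whose higher group averaged 10 CPM or more included Gata6 and Dab2, described above, as well as Foxq1. Nostrin, a trafficking protein of endothelial nitric oxide synthase, led. It had no read in 2iL and stood at 16.9, 22.7 and 27.99 CPM with DOX, at least 93.9-fold higher against a floor of 3 reads over the 2iL group (adjusted p = 4.75e-06), with 1 read in all libraries without DOX. Pvalb (parvalbumin), a calcium buffer, went from 1 read in 2iL to 234, at 31.6, 16.6 and 34.6 CPM. The cation pump genes Atp1a4 and Atp4a were among them. Atp1a4 stood at 9.98, 26.1 and 10.3 CPM with DOX and Atp4a, the gastric proton pump, at 39.2, 16.3 and 16.9 CPM, with 1 and 3 reads in all 2iL libraries together. By reads Atp4a was higher by 124-fold (95% counting interval 41.8 to 604). Pvalb, Atp1a4 and Atp4a had 2, 5 and 8 reads without DOX and were called higher than without DOX. Ubash3b, a tyrosine phosphatase, stood at 17.6, 12.9 and 24.3 CPM and Ybx2, a germ cell RNA-binding protein, at 8.08, 8.30 and 16.9 CPM with DOX. Without DOX they stood at 4.40, 1.73 and 7.05 and at 1.17, 6.69 and 8.23 CPM. Neither was called against no DOX (adjusted p = 0.0807 and 0.553). Timp2 and Timp3, inhibitors of matrix proteases that fibroblasts express, belong to the 12 by their level in exp1_2. Timp2 stood at 5.94, 4.61 and 436 CPM and Timp3 at 7.37, 4.61 and 308 CPM with DOX (6.53 and 7.43). In exp1_1 and exp2_1 they lay within or below the range without DOX (13.8, 15.3 and 11.8 CPM for Timp2 and 6.46, 8.41 and 5.29 CPM for Timp3). Timp2 did not pass without 2iL exp1_1, 2iL exp1_2, 2iL exp2_1, 2iL exp2_2, 96 h no DOX exp1_1, 96 h no DOX exp1_2 or 96 h no DOX exp2_2 (adjusted p up to 0.115), nor within experiment 1 (0.230), without a filter on low counts (0.0687), with limma-voom (0.421) or with only the 2 groups compared (0.111). Timp2 had a log2 fold change of 7.13 without 96 h DOX exp1_1, 7.12 without 96 h DOX exp2_1 and 1.77 without 96 h DOX exp1_2. Timp3 did not pass without 2iL exp1_1, 2iL exp1_2, 2iL exp2_1, 2iL exp2_2, 96 h no DOX exp1_1, 96 h no DOX exp1_2 or 96 h no DOX exp2_2 (adjusted p up to 0.0883), nor within experiment 1 (0.210), without a filter on low counts (0.0511), with limma-voom (0.299) or with only the 2 groups compared (0.0881). Timp3 had a log2 fold change of 8.02 without 96 h DOX exp1_1, 8.02 without 96 h DOX exp2_1 and 3.36 without 96 h DOX exp1_2.

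The 12 largest falls, chosen in the same way with at least 10 CPM in 2iL, were of genes near 0 with DOX, and Prdm14, described above, was among them. None of the 12 was called different between the groups at 96 h, where 3.10% of all tested genes were called. Osm, a cytokine of the LIF family, stood at 16.7, 8.19, 23.3 and 19.96 CPM in 2iL and had 2 reads with DOX, a ratio of 67.6-fold (95% counting interval 18.5 to 562). Il34, a ligand of the CSF1 receptor, stood at 45.6, 47.4, 31.3 and 44.7 CPM in 2iL, 3.52, 2.37 and 5.58 CPM without DOX and 1.19, 2.15 and 0 CPM with DOX (-4.96 ± 0.52, adjusted p = 1.36e-06). The innate immunity genes Pglyrp1 and Tmem173 (STING) had 238 and 146 reads in 2iL, 3 and 18 without DOX and 3 and 3 with DOX. In 2iL, without DOX and with DOX, Spic, an ETS factor, had 249, 13 and 6 reads, the water channel gene Aqp3 282, 26 and 5, and Mobp 188, 14 and 4. Casq2, calsequestrin of the heart, went from 178 reads in 2iL to 1 with DOX, a ratio of 116-fold (95% counting interval 20.5 to 4595), and had 5 without DOX. Tnni1, Tlx2 and Trpm1 differed between the 2iL libraries, at 5.66, 4.39, 41.5 and 50.3, 4.995, 4.09, 58.4 and 46.2 and 20.98, 4.97, 48.8 and 48.1 CPM, higher in experiment 2, and had 1, 3 and 3 reads with DOX. Without DOX Tnni1 and Trpm1 had 11 reads each. Within experiment 1 Tlx2 had a log2 fold change of -4.41 and within experiment 2 of -6.33. Tlx2 did not pass within experiment 1 (adjusted p = 0.0689) or with limma-voom (0.167). Tlx2 had a log2 fold change of -5.61 without 2iL exp2_1 and -7.04 without 96 h DOX exp2_1. Tnni1 did not pass with limma-voom (adjusted p = 0.0682). Tnni1 had a log2 fold change of -6.64 without 96 h DOX exp1_1 and -9.38 without 96 h DOX exp2_1. Trpm1 did not pass with limma-voom (adjusted p = 0.0536). Trpm1 had a log2 fold change of -9.59 without 96 h DOX exp1_1 and -5.79 without 96 h DOX exp2_1. Tmem173 did not pass within experiment 1 (adjusted p = 0.102). Tmem173 had a log2 fold change of -3.85 without 96 h DOX exp1_1, -4.04 without 96 h DOX exp2_1 and -8.37 without 96 h DOX exp1_2. The fitted folds of genes with so few reads with DOX depend on single reads.

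The monomer motif bound by Esrrb, TCAAGGTCA, was searched on both strands in RefSeq promoter windows (250 bases before to 50 after each start, GRCm38.p6). It was in 28 of 8829 tested genes with a window (0.317%), in 0 of 837 genes higher than in 2iL, 4 of 601 lower (0.666%), 1 of 171 higher than without DOX (0.585%) and 0 of 79 lower. The looser TNAAGGTCA (N for any base) was in 74 (0.838%), 2 (0.239%), 9 (1.5%), 2 (1.17%) and 2 (2.53%) of the same sets. Named genes without a window were not searched. Of the fixed markers and the largest rises and falls, none with a window held TCAAGGTCA, so no promoter is shown for them. The sites below are those of all 5 called genes that held it, chosen after their values were seen, with 10 bases on either side and the motif (either strand) in capitals, 5′ to 3′ on the gene's strand.
Bhmt, chr13:93637815-93637843, minus strand: tgaccccagaTCAAGGTCAgaggcctgct
Msrb2, chr2:19371507-19371535, plus strand: tccgcgaagaTCAAGGTCAagaggagcaa
Myh7b, chr2:155611187-155611215, plus strand: tctcctttgcTGACCTTGAcaacagcaat
Sgk1, chr10:21978599-21978627, plus strand: aggaccgggcTGACCTTGAacttttgaag
Sgk1, chr10:21985990-21986018, plus strand: atctccgagtTCAAGGTCAtccgggatta
Tpm3, chr3:90072411-90072439, plus strand: gtggaaagttTCAAGGTCAgggagaacct
A match is a description and not a bound site. Sgk1, a kinase of the AGC family, stood at 41.0, 52.3, 87.5 and 78.7 CPM in 2iL, 28.8, 18.5 and 16.5 CPM without DOX and 37.5, 52.6 and 58.2 CPM with DOX (-0.40 against 2iL, 95% interval -1.03 to 0.22; 1.21 against no DOX, adjusted p = 0.0487). It has 2 windows with a match at separate starts. Its call against no DOX was kept in 2 of the 10 fits without 1 library. The other 4 were below 2iL and not called against no DOX. Bhmt, which methylates homocysteine, had 56 reads in 2iL and 1 with DOX, a ratio of 36.4-fold (95% counting interval 6.27 to 1463). Msrb2, a methionine sulfoxide reductase, Tpm3 and the muscle gene Myh7b had log2 fold changes of -1.36, -0.78 and -2.39. Bhmt fell below the filter on low counts without 2iL exp1_1, 2iL exp2_1 or 2iL exp2_2 and within experiment 1. Bhmt had a log2 fold change of -6.87 without 96 h DOX exp1_1. Msrb2 did not pass without 2iL exp1_1 or 96 h DOX exp1_2 (adjusted p up to 0.0572), nor within experiment 1 (0.0703). Tpm3 did not pass without 2iL exp1_1, 2iL exp2_1, 2iL exp2_2, 96 h DOX exp1_1 or 96 h DOX exp2_1 (adjusted p up to 0.0829), nor within experiment 1 (0.191) or with library totals alone (0.0628). Myh7b did not pass without 96 h DOX exp1_1 (adjusted p up to 0.0507), nor within experiment 1 (0.0666).

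The lists that check for other cell types gave few tested genes. Of 9 trophoblast genes 1 was higher and 1 lower than in 2iL, and of 6 primitive streak genes 0 were higher and 1 lower. These counts were the same without 96 h DOX exp1_2, and the background was 9.84% higher and 6.83% lower. Of the fibroblast markers 3 passed the filter on low counts, and of hepatocyte markers and genes of the 2-cell-like state 0 did. Muscle and neuron markers gave 1 and 1 higher and 0 lower of 4 and 4 tested, with and without 96 h DOX exp1_2 (same background). Among the fixed markers not yet described, Cdx2, the trophectoderm factor, did not pass the filter on low counts. Sox1, of the early neural plate, stood at 2.33, 1.75, 1.54 and 1.85 CPM in 2iL, 4.70, 6.69 and 5.58 CPM without DOX and 4.28, 7.99 and 8.10 CPM with DOX (1.82 ± 0.61, adjusted p = 0.0453). Sox1 did not pass without 2iL exp1_1, 2iL exp1_2, 2iL exp2_1, 2iL exp2_2, 96 h no DOX exp1_1, 96 h no DOX exp1_2, 96 h DOX exp2_1 or 96 h DOX exp1_2 (adjusted p up to 0.129), nor within experiment 1 (0.303), without a filter on low counts (0.102), with limma-voom (0.0812) or with only the 2 groups compared (0.0573).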

How the data were processed

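Gene counts of 10 mouse libraries were used, of which 7 form the comparison. Per the labels' protocols, polyA RNA was made into libraries of the 3′ digital expression kind. The authors deposited 1 table of unique read counts per library, raw and not normalised. STAR 2.6.0a, HTSeq, bcl2fastq and the build mm10 are named in the submitters' processing notes, without a role or settings. The HTSeq summary lines held 62.7% to 68.4% of the reads, of which reads with several alignments (56.4% to 62.4%) were the largest share, and were removed. Genes with processed copies or near-identical copies, among them Pou5f1, Nanog, Ldha and Dppa5a, are therefore uncertain in level. The strand setting of the counting was not found in the labels. Of 31053 gene identifiers 30934 were matched to a symbol in GENCODE vM21 (GRCm38), the build of the coordinates.

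Counts were tested with edgeR 4.0.16 in R 4.3.3: quasi-likelihood fit with 1 mean per group over all 10 libraries, which share 1 estimate of the spread, genes kept by filterByExpr at a minimum count of 10, TMM scaling and Benjamini-Hochberg adjustment at 0.05. Errors after ± are standard errors for log2 fold changes and SDs for CPM. Folds against a group without reads use a floor of 3 reads over the group. Counting intervals are exact binomial ones at 95% and cover counting error only. The script was tested on simulated data. Alternatives were leaving out each library, experiment 1 alone, replicate blocks, other scalings and filters, DESeq2 1.42.0 and limma-voom (limma 3.58.1).

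Genes are named by these rules: fixed markers, the 12 largest rises and falls among called genes of at least 10 CPM without overlap, up to 3 genes per direction of each list, and naive genes that did not pass. Other named genes were added after their values were seen. The compared groups, the gene lists and these rules were chosen with earlier results of these data known. A few genes that these rules name are not reported here.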

Additional observations from a re-analysis of the deposited data

Results flagged for a closer look

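In 2iL, 15 of the 155 genes examined had 1 library far from the other 3 by Dixon's test at 95%. Chance flags about 1 in 20 groups of continuous values, a share that does not hold for the first 5, where 1 or 2 reads against 0 meet the criterion by construction. For Atp1a4 (0.307 CPM in exp2_1), Pvalb (0.307 CPM in exp2_1), Cubn (0.292 CPM in exp1_2), Ybx2 (0.292 CPM in exp1_2) and Tdrd1 (0.614 CPM in exp2_1) the other libraries held no read. Higher than the rest were Car14 (2.59 CPM in exp2_2), Grhl2 (10.4 CPM in exp2_2), Sox17 (2.33 CPM in exp1_1), Zcwpw1 (15.5 CPM in exp1_2), Pfkp (192 CPM in exp1_2) and Zfp42 (241 CPM in exp1_1). Lower than the rest were Bhmt (1.75 CPM in exp1_2), Col4a1 (2.15 CPM in exp2_1), Ebp (154 CPM in exp1_2) and Il34 (31.3 CPM in exp2_1).

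Nodal and Tet2 moved in opposite directions in the experiments. The log2 fold change of Nodal against 2iL was 0.38 within experiment 2 and -1.46 within experiment 1, and that of Tet2 was 0.51 and -0.64. The test of the difference between experiments did not pass for Nodal (1.84, adjusted p = 0.710) or Tet2 (1.15, adjusted p = 0.812) in the edgeR fit with an interaction term, in which experiment 2 has 1 library with DOX.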

How the results depend on the processing

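Between 96 h with DOX and 2iL, leaving out 1 library gave 1408 to 1916 called genes, and DESeq2 gave 2302, limma-voom 1763, no filter on low counts 2240, a minimum count of 30 gave 1530 and only the 2 groups 1648. Experiment 1 alone gave 926 (622 higher, 304 lower), with 2 libraries per group. Scaling by library totals alone gave 1998 calls, 1416 higher and 582 lower. Between the groups at 96 h, leaving out 1 library gave 161 to 358 calls, 117 to 243 higher and 42 to 115 lower. The low counts came without 96 h no DOX exp1_1 (161: 117 higher, 44 lower) and exp2_2 (181: 139 higher, 42 lower), and the lower calls were 52 without 96 h DOX exp2_1. Experiment 1 alone gave 108 (94 higher, 14 lower), no filter 564 (367 higher, 197 lower), DESeq2 563 (377 higher, 186 lower) and only the 2 groups 212 (149 higher, 63 lower). The cause of these differences was not tested. With experiment as a replicate block 1815 genes differed from 2iL and 347 between the groups at 96 h. With library number and experiment together as a replicate block there were 1591, and 159 between the groups at 96 h (125 higher, 34 lower). The labels give no reason to pair the libraries by number, and the deviations of same-numbered libraries in 2iL and with DOX correlated at 0.03, 0.03 and 0.01. Those in 2iL and at 96 h without DOX correlated at 0.006 (exp1_1), 0.205 (exp1_2) and -0.020 (exp2_2). Between the groups at 96 h the values were -0.095 (exp1_1) and 0.054 (exp1_2). For the named genes no alternative reversed a called direction. The interaction of the comparison with experiment, added after the data were seen, called 0 genes by edgeR (721 at an unadjusted p below 0.05). The depth of 96 h DOX exp1_2 limits genes of few reads most.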
